A study of Caenorhabditis elegans with 2 samples.

Results

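The genes described here code for the translation initiation and elongation factors of Caenorhabditis elegans. They were selected by symbol from the protein-coding genes of assembly WBcel235, as those whose names begin with eif-, eef-, ife-, iff-, ifg- or inf-, and 40 of 19973 genes matched. Binding of the homeodomain protein CEH-20 was read from chromatin immunoprecipitation followed by sequencing (ChIP-seq) of whole L4 larvae. The larvae were 49 hours old and had been synchronised by bleaching and starvation at the L1 stage. They were of strain RW12211, which carries st12211[ceh-20::TY1::EGFP::3xFLAG] III, a CRISPR insertion that adds a TY1, EGFP and 3xFLAG tag to the ceh-20 gene. Chromatin was sheared by Bioruptor sonication and pulled down with an antibody against GFP. The 2 samples were biological replicates 1 and 2 of 1 group, so there was no treated or mutant group to compare with, and control libraries were not analysed here. The material was whole animals, so binding in different tissues cannot be told apart. The protein pulled down carried the tag, and untagged CEH-20 was not measured.

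Initiation factors bring the small ribosomal subunit, the initiator tRNA and the messenger RNA together at a start codon. Elongation factors then deliver the aminoacyl-tRNAs and move the ribosome along the message. Most animal cells make the elongation factors in large amounts, and in vertebrates their messages belong, with those of ribosomal proteins, to a class whose translation follows nutrient signalling. CEH-20 is the worm homologue of the PBX proteins, which bind DNA as partners of Hox and Meis-type homeodomain proteins.

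A gene was called bound when a transcript start had a summit of the authors' conservative list within 2000 bp on its upstream side or 500 bp on its downstream side. The members called bound were thus chosen by the measured peaks themselves, so the counts and peak signals below are given as a description and carry no test. The reference set was the genes with a summit in the longer of the 2 ranked lists, which holds peaks before any cut-off, in the same window. Of the 40 translation factor genes 34 had such a ranked summit and 12 were bound, which was 35.3% of the 34 (exact Clopper-Pearson 95% interval 19.7 to 53.5, covering counting error over genes only). Over all genes with a ranked summit, 1912 of 13157 were bound, or 14.5%. The 12 bound genes were 6 initiation factors, 5 elongation factors and 1 eIF5A gene, and the classes differed in the share of their own genes bound. By symbol there were 6 elongation factor genes, all with a ranked summit, and 5 were bound (83.3%, interval 35.9 to 99.6). There were 32 initiation factor genes, 26 had a ranked summit, and 6 were bound (23.1%, interval 8.97 to 43.6). The remaining pair, iff-1 and iff-2, code for eIF5A, a protein named as an initiation factor that is known to act in elongation, and iff-2 was bound. The bound share of initiation factors differed from that of elongation factors by -60.3 percentage points, a value that rests on 6 elongation factor genes. The intervals of both classes overlapped, and that of the initiation factors held the 14.5% of all genes. With eIF5A counted among the elongation factors 6 of 8 were bound (75.0%), and the difference was -51.9 points. With eIF5A among the initiation factors it was -58.3 points.

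**Figure D1:**
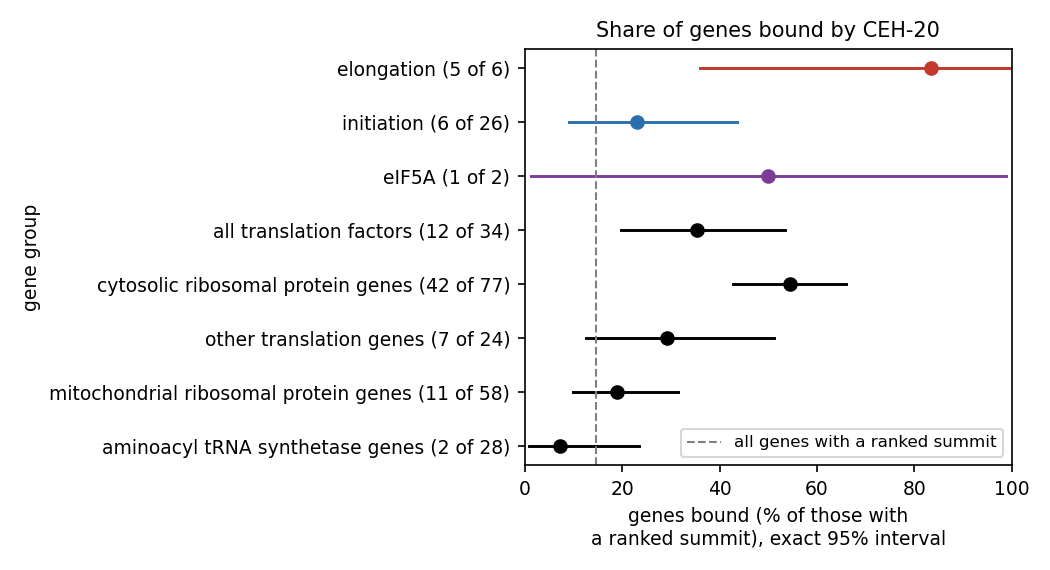
Share of genes bound by CEH-20 (percent of genes with a ranked summit) for the classes of translation factors and for other groups of translation genes. Points are shares, lines are exact 95% intervals for counting error over genes, and the dashed line marks the 14.5% of all genes; elongation factors stand at 83.3% and initiation factors at 23.1%.

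The bound translation factor genes also had strong peaks within the list. The authors deposited a signal for each peak, a measure of strength whose scale the sources used here do not give, so its values were compared within 1 list only. The median over the strongest peak of each of the 12 genes was 128, against 90.1 over all 1912 bound genes, and 10 of the 12 lay above the latter. For the 5 elongation factors the median was 138 with a range of 118 to 207, and all 5 lay above it. For the 6 initiation factors it was 104 with a range of 64.2 to 168, and 4 lay above it. The ranges of both classes overlapped. In the plot of the strongest ranked summit at each gene, the bound elongation factors and iff-2 stand above eef-1B.2 and iff-1, which had no call. The initiation factors run from 168 down to genes with no ranked summit. Calls were made from these same peaks, so a gap in signal between genes with and without a call follows from the selection. It is not read as a trait of a class.

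**Figure D2:**
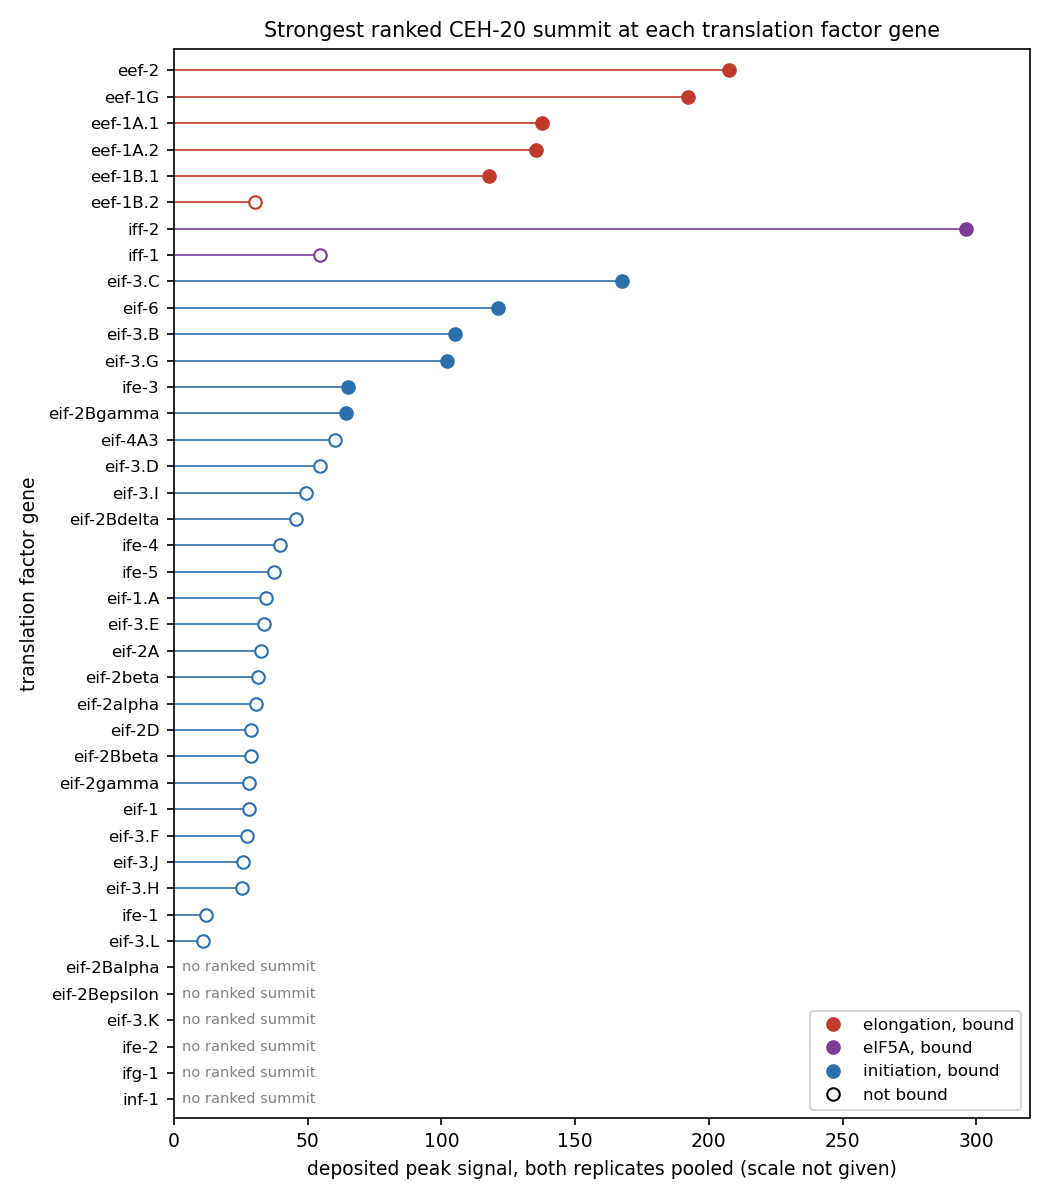
Deposited signal of the strongest ranked CEH-20 summit in the window of each of the 40 translation factor genes (both replicates pooled, scale not given). Filled circles are bound genes and open circles genes with a ranked summit only; the highest is iff-2 at 296, and 6 initiation factor genes had no ranked summit.

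The translocase gene eef-2, whose product moves the ribosome along by a codon in each cycle, had the strongest peak of the elongation factors. It lay on chromosome I at 9163432 to 9163576 with its summit 4 bp upstream of a transcript start of eef-2. Its pooled signal was 207, rank 145 of the 2522 conservative peaks. In the ranked lists of the replicates alone it stood at 115.2 in replicate 1 and 96.3 in replicate 2, and it passed the cut-off in both. The summit also lay 261 bp upstream of clsp-1, which runs on the opposite strand, so the peak cannot be given to either gene alone by position.

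Both genes selected by symbol for eEF1A, the GTPase that brings aminoacyl-tRNA to the ribosome, were bound. The promoter of eef-1A.1, known under its older name eft-3, is widely used to drive transgenes in many tissues of the worm. Its peak lay on chromosome III at 6971928 to 6972243, with the summit 374 bp upstream of the start. The pooled signal was 138 (rank 405), with 76.0 in replicate 1 and 63.9 in replicate 2. The start of rfc-4, a gene for a subunit of the clamp loader of DNA replication, lay nearer to this summit at 167 bp on the opposite strand, and the annotated microRNA gene cel-mir-5549 ended 1 bp away. The gene stands 8171 bp from the tagged ceh-20 gene itself, which had a peak of 168. The peak of eef-1A.2 lay on chromosome X at 7823152 to 7823467, with the summit 344 bp upstream of its start. Its pooled signal was 135 (rank 417), with 88.8 in replicate 1 and 49.3 in replicate 2. No other protein-coding gene held the eef-1A.2 summit in its window, though a noncoding RNA gene, R03G5.8, lay 75 bp away. Both eEF1A peaks were in the thresholded lists of both replicates.

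The eEF1B complex exchanges the guanine nucleotide on eEF1A, and 2 of its 3 genes were bound. At eef-1G, the gene for the gamma subunit, the peak spanned 10965627 to 10965737 on chromosome V and its summit was 27 bp upstream of a transcript start. The pooled signal was 192 (rank 170), with 93.7 in replicate 1 and 101.4 in replicate 2. The summit was also 153 bp upstream of ctf-4 on the opposite strand. At eef-1B.1 the peak spanned 7973265 to 7973580 on chromosome III, with the summit 37 bp upstream of the start. The pooled signal was 118 (rank 581), with 58.9 in replicate 1 and 62.8 in replicate 2. That summit was shared with aco-2, a gene for mitochondrial aconitase 294 bp away on the opposite strand, and with F54H12.5, and it lay inside the noncoding RNA gene F54H12.9. Both peaks passed the cut-off in each replicate. The third gene, eef-1B.2, was not bound. Its strongest ranked summit had a pooled signal of 30.5 and lay 466 bp downstream of a start. Replicate 1 alone had a ranked summit of 14.0 in that window and replicate 2 had none. For comparison, the median ranked signal over the 11245 genes without a call was 29.3, so eef-1B.2 stood close to it.

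The strongest peak of all 40 genes was that of iff-2. It codes for a form of eIF5A, which carries the modified lysine hypusine and helps ribosomes past stretches that are slow to translate. The peak spanned 8561352 to 8561533 on chromosome II, with a pooled signal of 296 and rank 56 of 2522. Replicate 1 gave 147 and replicate 2 gave 150, and both thresholded lists held it. The summit was 75 bp upstream of a start of iff-2 and 860 bp upstream of F54C9.14 on the opposite strand. The paralogue iff-1, known for its part in germ cell proliferation, was not bound. Its strongest ranked summit had a signal of 54.7 and lay 403 bp downstream of a start, with 32.5 in replicate 1 and 16.8 in replicate 2.

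The sequence within 50 bp of each summit is given for iff-2, for 4 of the 5 bound elongation factors and, beside them, for the initiation factor eif-3.B, to show what these peaks share in their letters. Each is written 5′ to 3′ on the strand of the named gene, from the WBcel235 sequence of RefSeq, and capitals mark TACGCA or its reverse complement TGCGTA and a stretch of 15 bases that eef-1G and eef-1A.2 share.
iff-2 (chrII:8561392-8561492, minus strand): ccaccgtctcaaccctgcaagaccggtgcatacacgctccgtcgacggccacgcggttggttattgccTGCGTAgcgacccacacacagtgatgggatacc
eef-1G (chrV:10965642-10965742, plus strand): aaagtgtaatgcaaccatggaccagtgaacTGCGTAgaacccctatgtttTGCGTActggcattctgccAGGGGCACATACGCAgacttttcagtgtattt
eef-1A.2 (chrX:7823260-7823360, plus strand): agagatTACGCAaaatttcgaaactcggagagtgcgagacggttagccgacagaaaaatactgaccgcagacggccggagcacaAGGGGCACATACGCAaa
eef-1A.1 (chrIII:6972036-6972136, minus strand): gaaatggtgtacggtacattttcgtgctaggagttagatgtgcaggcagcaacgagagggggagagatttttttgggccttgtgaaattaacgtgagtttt
eef-1B.1 (chrIII:7973373-7973473, minus strand): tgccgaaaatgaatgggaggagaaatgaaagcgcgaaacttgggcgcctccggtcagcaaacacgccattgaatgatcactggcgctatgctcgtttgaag
eif-3.B (chrII:14795102-14795202, plus strand): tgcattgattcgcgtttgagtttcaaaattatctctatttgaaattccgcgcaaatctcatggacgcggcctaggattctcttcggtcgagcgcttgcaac
The strongest windows of 9 of the 12 bound members were compared in all 36 pairs, leaving out eef-2, eif-3.C and eif-6, and 1 pair shared more than 9 bases in a row on either strand. This is aggggcacatacgca, present in the eef-1G window 26 bp from the summit and in the eef-1A.2 window 41 bp from the summit. At eef-1G the stretch, at chrV:10965711-10965725, spans a transcript start, and at eef-1A.2, at chrX:7823344-7823358, its middle lies 303 bp upstream of the start. In the whole genome it occurs 5 times. A pair of copies, at chrII:6588985-6588999 and chrII:6589028-6589042, lies 337 and 380 bp upstream of icd-1, the gene for the beta subunit of the nascent polypeptide-associated complex, which binds new proteins as they leave the ribosome. A conservative peak with a signal of 155 covers both. The remaining copy, at chrIV:4131740-4131754, is 4097 bp from the nearest protein-coding start, that of F49F1.17, and under no conservative peak.

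The 6 bases at the end of that stretch, TACGCA, were picked after the windows had been seen. They occurred in 3 of the 13 windows of the bound members, with 3 copies at eef-1G, 2 at eef-1A.2 and 1 at iff-2. The windows of eef-1A.1, eef-1B.1 and eef-2 had none, and nor did any of the 7 windows of initiation factors. Over all 2522 conservative windows the share with TACGCA on either strand was 5.04%, and among the strongest windows of bound ribosomal protein genes it was 22.5% (9 of 40). In promoters from 250 bp upstream to 50 bp downstream of the start it stood in 6 of the 40 translation factor genes (15%), against 6.44% of all 19973 promoters. Of these 6 genes 4 were not bound, out of 28 members without a call (14.3%), and 2 were among the 12 bound. The bases are therefore in few of the members' windows, and their presence says nothing of which protein reads them.

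The sites that PBX proteins are known for were not found at these summits. The letters TGATNNAT, a composite site of PBX and Hox proteins, occurred in none of the 13 windows against 10.2% of all windows, on both strands. The letters TGATTGAC also occurred in none, against 0.753%. The same held for TGACAG, the core that Meis-type proteins read, at 4.88% of all windows, and for CACGTG, the E-box, at 5.43%. With 13 windows these counts are too small to set the members apart from the other peaks. The motifs searched were named from earlier results of these data, so their shares here are a description only. In promoters TGATNNAT stood in 6 of the 40 genes (15%), among them the bound eef-2 and eef-1A.2, against 23.7% of all promoters. GAGAGA occurred in 2 windows, those of eef-1A.1 and ife-3, against 22.3% of all. CGTCTC occurred in 2, those of iff-2 and eef-1A.2, against 15.4%. AGACGCAG occurred in 1, that of ife-3, against 7.30%. The motif CGTCTC, read on the other strand, can overlap with AGACGCAG, and a match describes the letters only. The median GC content was 46.5% over the members' windows, from 29.7 to 61.4, and 46.5% over all windows.

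The summits of initiation factors lay farther from the starts, by their median, than those of elongation factors, and the ranges overlapped. The distance from the strongest summit to the closest start of the gene had a median of 958.5 bp over the 6 initiation factors, from 232 to 1991, and of 37 bp over the 5 elongation factors, from 4 to 374. All 12 strongest summits lay upstream, and over all bound genes 92.5% did. Of the elongation factors 5 of 5 had it within 500 bp, against 2 of 6 initiation factors and 52.9% of all bound genes. Distance was not used to choose between the classes, but the same window set which summits could count, and with 5 and 6 genes no test was made.

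**Figure D3:**
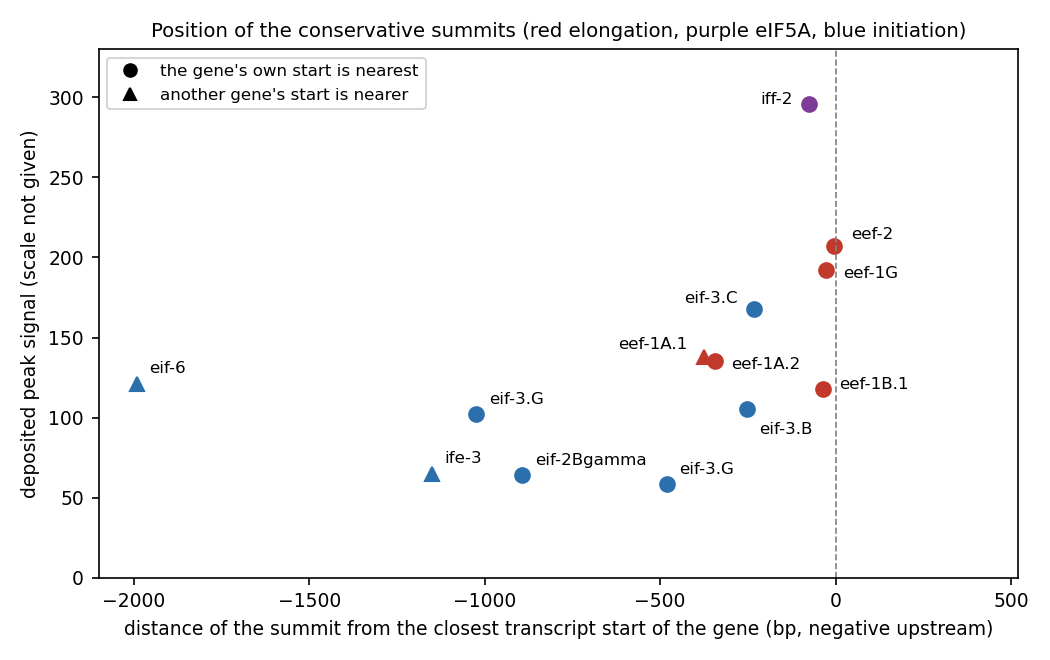
Distance of each conservative summit from the closest transcript start of its gene (bp, negative upstream) against its deposited signal (scale not given), 13 peaks at 12 genes. Circles mark summits whose nearest protein-coding start is that of the gene and triangles those nearer to another gene; elongation factors (red) lie within 374 bp and iff-2 (purple) 75 bp upstream, and initiation factors (blue) reach 1991 bp.

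Among the initiation factors the largest number of calls fell to eIF3, the complex of many subunits that holds the small ribosomal subunit to the message. It is also the complex with the most genes selected by symbol. Of these 11 genes 10 had a ranked summit and 3 were bound (30.0%, interval 6.67 to 65.2). That interval held both the 23.1% of all initiation factors and the 14.5% of all genes. The strongest was eif-3.C, on chromosome I at 9979736 to 9980051, with its summit 232 bp upstream and no other gene in reach. Its pooled signal was 168 (rank 230), with 82.4 in replicate 1 and 86.5 in replicate 2. At eif-3.B the peak spanned 14794994 to 14795309 on chromosome II, with a summit 252 bp upstream, again held by no other gene. Its pooled signal was 105 (rank 735), with 61.3 in replicate 1 and 42.3 in replicate 2. It passed the cut-off in replicate 1 alone. Its irreproducible discovery rate (IDR, low for peaks that rank consistently high in both inputs) was 0.0208 in replicate 2. At eif-3.G there were 2 peaks on chromosome II. The stronger, at 8441585 to 8441900, lay 1024 bp upstream in an intron of the neighbouring gene lips-10, with a pooled signal of 102 (rank 779). Its values were 44.0 in replicate 1 and 57.2 in replicate 2, and it passed in replicate 2 alone. The other, at 8442129 to 8442444, lay 480 bp upstream with a pooled signal of 58.3 (rank 2234), and it passed in neither replicate. Of the other eIF3 genes, eif-3.D had a ranked summit of 54.5 and eif-3.I one of 49.3. The rest lay lower, with 33.8 at eif-3.E, 27.2 at eif-3.F, 25.7 at eif-3.J, 25.4 at eif-3.H and 10.8 at eif-3.L. At eif-3.K the pooled list had no ranked summit, while replicate 1 alone had one of 11.3.

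The remaining 3 bound initiation factors were eif-6, ife-3 and eif-2Bgamma, and at eif-6 and ife-3 the start of another gene was nearer to the summit. The gene eif-6 codes for the factor that keeps the large ribosomal subunit from joining too early. Its summit lay 1991 bp upstream, near the limit of the window, on chromosome I in a peak from 12966797 to 12967112. The signal was 121 (rank 546), with 58.6 in replicate 1 and 63.3 in replicate 2, and both passed. The start of tba-2, an alpha-tubulin gene, was much nearer to this summit, at 160 bp on the opposite strand. The gene ife-3 codes for an eIF4E, the protein that binds the cap of the message. Its peak, at 8820 to 9135 on chromosome V, lay 1150 bp upstream with a signal of 64.9 (rank 2006), and the start of B0348.10 was nearer at 239 bp. Replicate 1 gave 32.7 and replicate 2 gave 41.6, and neither passed. The gene eif-2Bgamma codes for a subunit of eIF2B, which recharges eIF2 with GTP. Its peak, at 6968383 to 6968698 on chromosome II, lay 893 bp upstream in an intron of C15F1.5, with a signal of 64.2 (rank 2036). Replicate 1 gave 38.4 and replicate 2 gave 29.7, and neither passed. That summit fell inside the annotated noncoding genes sup-39, mir-1831 and C15F1.14.

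The other initiation factors were not bound. The 3 subunits of eIF2, which carries the initiator tRNA, had ranked summits of 31.4 at eif-2beta, 30.8 at eif-2alpha and 28.1 at eif-2gamma. Of the other eIF2B genes, eif-2Bdelta stood at 45.8 and eif-2Bbeta at 28.8. Neither the pooled list nor either replicate had a ranked summit for eif-2Bepsilon, and for eif-2Balpha only replicate 1 did, at 14.4. The scanning factors gave 34.4 at eif-1.A and 28.0 at eif-1, and the alternative initiator tRNA carriers gave 32.5 at eif-2A and 28.9 at eif-2D. Of the cap-binding proteins ife-4 had 39.9, ife-5 had 37.6 and ife-1 had 12.1. For ife-2, for ifg-1, the gene for the scaffold eIF4G, and for inf-1, the gene for the helicase eIF4A, the pooled list had no ranked summit. In replicate 2 alone their values were 10.5, 25.1 and 13.4. Over the 20 initiation factors with a ranked summit and no call the median was 31.1, close to the 29.3 of all such genes.

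Near the cut-off, eif-2Bgamma and ife-3 on the bound side and eif-4A3 on the other had similar signals. The IDRs of both sides did not meet, but the conservative list was itself kept by a cut-off on IDR. That separation follows from the call and is no result of its own. The 3 weakest bound genes were eif-2Bgamma at 64.2 with a pooled IDR of 0.0036, ife-3 at 64.9 with 0.0026 and eif-3.G at 102 with 0.0002. The 3 strongest genes without a call were eif-4A3 at 60.4 with an IDR of 0.023, iff-1 at 54.7 with 0.155 and eif-3.D at 54.5 with 0.0318. The gene eif-4A3 codes for the helicase of the exon junction complex, and its summit lay 66 bp downstream of a start. It entered the authors' larger thresholded list, in which 13 members were bound (7 initiation, 5 elongation and 1 eIF5A) against 14.9% of all genes.

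The replicates gave the same elongation factors and only some of the same initiation factors. With the list of replicate 1 alone 9 members were bound, against 7.89% of all genes, and with that of replicate 2 alone 9 were bound, against 9.53%. Both sets held the same 5 elongation factors and iff-2. Of the initiation factors replicate 1 kept eif-3.B, eif-3.C and eif-6, and replicate 2 kept eif-3.C, eif-3.G and eif-6, so the count was 3 without replicate 1 and 3 without replicate 2, down from 6. Over the strongest peaks, 8 of the 12 bound members were in both replicates' lists (66.7%), against 40.5% of all 1912 bound genes, and 2 of 12 in neither (16.7%), against 30.2%. The bound members also had a higher median signal than all bound genes, and the part of that in these shares was not tested.

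**Figure D4:**
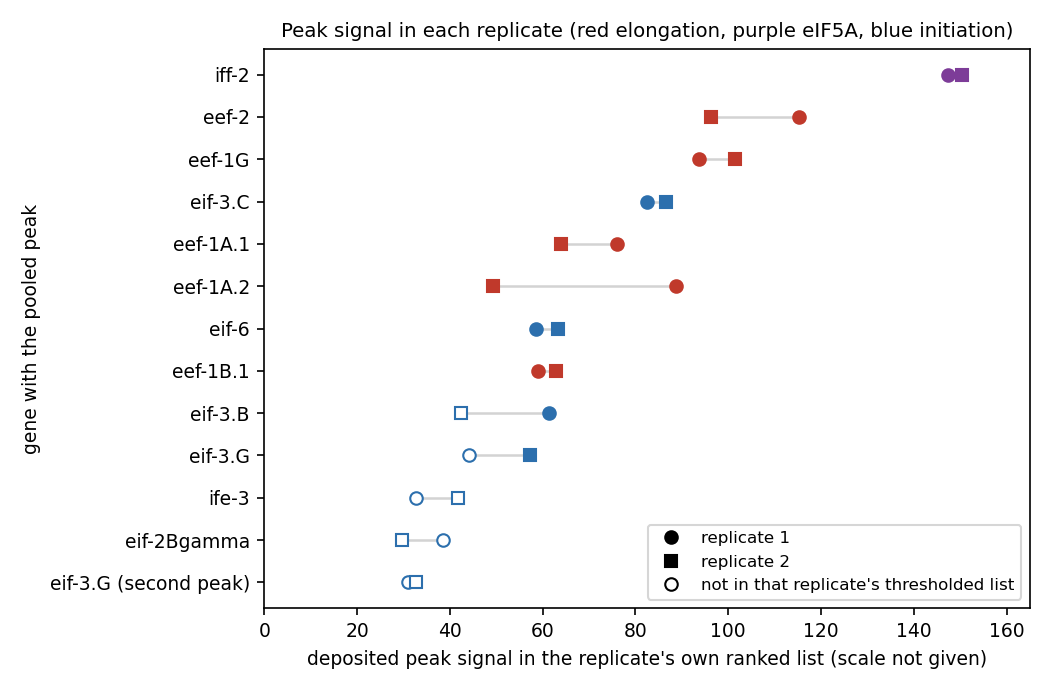
Deposited signal at the 13 conservative peaks of bound translation factors in the ranked list of each replicate (scale not given). Circles are replicate 1 and squares replicate 2, with open symbols where the peak is not in that replicate's thresholded list; the 5 elongation factors and iff-2 are filled in both, and the open symbols belong to initiation factors.

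Narrower windows removed initiation factors and left the elongation factors in place. Within 500 bp on either side of a start 9 members were bound, against 8.22% of all genes, with all 5 elongation factors, 3 initiation factors and iff-2. Of these, eif-3.G counted only through its weaker peak, 480 bp upstream with a signal of 58.3, which passed in neither replicate. When each summit counted for the gene with the nearest start alone, 9 members were bound, against 10.1% of all genes. That rule dropped eef-1A.1, eif-6 and ife-3, each of which has another gene's start closer to its summit. Of the 12 strongest summits 9 had their own gene's start as the nearest (75.0%), against 68.6% for all bound genes. A summit was shared with another protein-coding gene at 7 of the 12 (58.3%), against 53.2%. The elongation factors shared theirs at 4 of 5 genes and the initiation factors at 2 of 6.

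**Figure D5:**
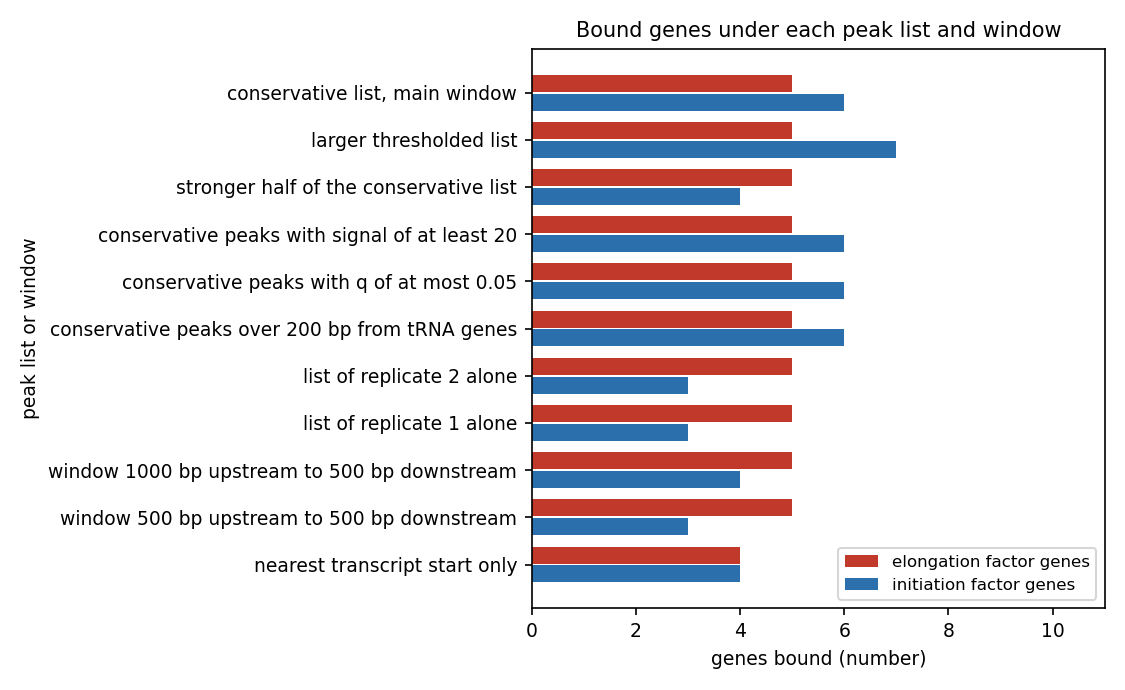
Number of elongation (red) and initiation (blue) factor genes bound under each peak list and window. The elongation count is 5 under each setting but the nearest-start rule, where it is 4, and the initiation count runs from 3 to 7.

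Other genes of the translation machinery were counted in the same way, beside the 14.5% bound over all genes with a ranked summit. Of the 77 cytosolic ribosomal protein genes with a ranked summit 42 were bound (54.5%, interval 42.8 to 65.9). Their median signal of 122, with a range of 58.1 to 735, lay between the 104 of the initiation factors and the 138 of the elongation factors. Of 58 mitochondrial ribosomal protein genes 11 were bound (19.0%, interval 9.87 to 31.4), and of 28 aminoacyl-tRNA synthetase genes 2 were (7.14%, interval 0.877 to 23.5), namely ears-2 and kars-1. Of 24 other translation genes 7 were bound (29.2%, interval 12.6 to 51.1). They included efk-1, the kinase that acts on eEF2, at 51.7, larp-1, for an RNA-binding protein of the La-related family, at 220, and ifet-1, a binding partner of eIF4E, at 249, whose peak is shared with rps-1. The elongation factors and the initiation factors thus stood on either side of the cytosolic ribosomal protein genes, with intervals that overlapped the interval of the latter in both cases. The interval of the mitochondrial ribosomal protein genes lay within that of the initiation factors. The 14.5% of all genes lay within the intervals of the mitochondrial ribosomal protein, synthetase, other translation and initiation factor genes.

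Some genes for translation factors have names outside the symbol rule. A list of 9 from RefSeq product names was added after the data had been seen. Of these 8 had a ranked summit and none was bound, and they included egl-45 for eIF3 subunit A at 11.9 and iffb-1 for eIF5B at 19.7. Over all genes with a ranked summit 14.5% were bound, and 8 genes are too few to be set apart from that share. The eIF5 genes C37C3.2 and C37C3.18 shared a ranked summit of 86.4, which had a pooled IDR of 0.225 in the ranked list. The gene without a ranked summit was C08E8.5, whose product name is elongation factor 1-alpha, and it was not bound. With these genes added 28.6% of the translation factor genes with a ranked summit were bound, down from 35.3%. The share of initiation factors minus that of elongation factors was then -65.7 percentage points. C08E8.5 did not enter that value, which counts genes with a ranked summit only, so the elongation share stayed at 5 of 6.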

How the data were processed

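Peak lists of 2 biological replicates, so called in the labels, were used, all on assembly ce11, which is WBcel235. The authors deposited, per the labels and file descriptions, lists ranked by IDR and lists kept after an IDR cut-off, for each replicate (40237 and 36837 ranked peaks, 1249 and 1490 kept) and for both together (56499 and 55701 ranked, 2522 kept in the conservative and 2632 in the larger list). Each deposited peak has a score, scaled by IDR up to 1000, a signal of unstated scale, a −log10 q-value and a summit offset, and each ranked peak a −log10 IDR. A larger signal can reflect deeper sequencing, so signals were compared within a list. Aligner and peak caller are not given in the sources used here. These files hold no read counts, so depth is unknown, and intervals cover counting error over genes only.

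Transcript starts came from Ensembl release 115, and sequence from the RefSeq genome. Motif searches covered 50 bp to each side of a summit, on both strands. No p-value was computed: there is 1 group. The members, lists and motifs were chosen with earlier results of these data known. Genes were named as every bound member, every other member by its strongest ranked summit, the 3 on either side of the call, and genes sharing a bound summit. Alternatives were other lists, single replicates, windows, backgrounds and groupings. The window assignment, the nearest-start rule and the motif search were tested on simulated data, and the other steps were not. Tools were matplotlib 3.10.9, scipy 1.17.1, pandas 2.3.3, numpy 2.4.6 and Python 3.11.15.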

Additional observations from a re-analysis of the deposited data

How the results depend on the processing

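The bound share of initiation factors minus that of elongation factors was negative under every alternative tried, from -51.3 to -71.8 percentage points. The elongation count was 5 under each list and window except the nearest-start rule, where it was 4. The initiation count, 6, ranged from 3 to 3 when a replicate was left out and was 3 in the window of 500 bp either side of a start. The narrower window admits fewer summits by construction. Why the calls of the replicates differ was not tested. The count of all members ranged from 9 to 13. Adding genes by RefSeq product name was chosen after seeing the data. No paired analysis was possible because both replicates belong to 1 group. Depth is unknown, so a gene without a call is not shown to be unbound.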
